A study of Mus musculus with 622 samples.

Results

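The high dose of miR-465c-3p was followed to the morula in 28 single parthenotes, compared with 22 control parthenotes of the same experiment. They are 28 of the 622 samples of the series and were chosen by the sample titles, which name stage, dose and embryo number. A parthenote develops from an oocyte activated without sperm, so it carries maternal chromosomes only. Oocytes came from superovulated FVB/NJ females aged 5 to 7 weeks and were activated with SrCl2, EGTA and cytochalasin B. High-dose parthenotes received a synthetic miR-465c-3p by cytoplasmic injection of about 53 fL, and controls received GFP. A low-dose group of 29 parthenotes, given about 200 molecules, shared the same controls. The amount behind the high dose is not stated in the labels used here. All groups were collected 70 hours after activation, as compacted morulae, and sequenced 1 embryo per library. Eggs of about 5 females were pooled for each experimental replicate and assigned to all treatments, with about 8 embryos per group and replicate. The protocol gives 3 experimental replicates, so the embryos of a group come from few independent pools. The labels do not give the day of each embryo, so p-values measure the spread between embryos and take no account of the day.

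A microRNA guides an Argonaute protein to messenger RNAs, mostly through pairing of its seed, the bases near its 5′ end, with sites in 3′ untranslated regions (3′ UTRs), and lowers their stability or translation. Members of the miR-465 family are X-linked in the mouse and are known from testis and sperm. At the morula stage the blastomeres compact and polarize, and outer cells begin the trophectoderm programme, which includes Cdx2, Gata3, Krt8 and Krt18.

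The injected sequence is shown first because it defines the sites searched below. RefSeq mature sequences (build GRCm38.p6) are written 5′ to 3′, with bases 2 to 8 in capitals. The miR-465a-3p, miR-465b-3p and miR-465c-3p entries hold the same sequence, and miR-465d-3p has another seed. The other microRNA injected in the series is given for comparison.
miR-465c-3p: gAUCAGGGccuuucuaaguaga
miR-465d-3p: uGAUCAGGgccuuucugaguaa
miR-200c-3p: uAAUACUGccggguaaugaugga

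Of the 20 genes described below, 4 hold a match to the miR-465c-3p seed, CCCTGAT, in the longest annotated 3′ UTR of RefSeq (GRCm38.p6). Over all tested genes with a 3′ UTR, 7.35% hold a match, and 1.43% one with an A opposite base 1. The 20 were chosen by p, and their count was not tested against these shares. Surf4 and Mfap4 were lower in value at the high dose, and Bhlhe41 and Ankrd12 higher. These sites are shown on the strand of the messenger RNA with the match in capitals. In Surf4, Bhlhe41 and Ankrd12 an A lies opposite base 1 of the microRNA, and in Mfap4 it does not.
Surf4, chr2:26920961-26920988, minus strand: gaccccgtcgacagCCCTGATaccacca
Bhlhe41, chr6:145862603-145862630, minus strand: ctgtcaaggagcctCCCTGATaaatggt
Ankrd12, chr17:65970058-65970085, minus strand: ccttttaagaaaaaCCCTGATacacgcc
Mfap4, chr11:61488117-61488144, plus strand: cacatacagccacgCCCTGATgcattcc

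The morula libraries held totals of about 2299380 to 5615920 expected counts. The high-dose embryos had 11526 ± 835 genes with a count of at least 1 (SD, n = 28), against 12062 ± 826 in controls (n = 22) and 11894 ± 807 at the low dose (n = 29). High-dose and control embryos differed in this number (two-sided permutation test, p = 0.0264, adjusted over 3 library measures 0.0396), but not by medians (adjusted p = 0.0553) or without embryos 6 to 12, described below (permutation test, adjusted p = 0.389). Without control embryo 24, also described below, they did differ (permutation test, adjusted p = 0.00663). The 10 most abundant genes took 8.19 ± 0.85% of the counts at the high dose and 7.51 ± 0.88% in controls (permutation test, adjusted p = 0.0168). Totals did not differ detectably (permutation test, adjusted p = 0.623). Inner cell mass markers were present in every group: Pou5f1 stood at 1245 ± 328 CPM (expected counts scaled to a library total of 1000000) at the high dose and 1329 ± 262 CPM in controls. Of the 8 markers of a paternal genome, the 4 Y-linked genes were at 0 in all 79 morulae, and the 8 summed to at most 4.98 CPM in any embryo. The 7 cumulus and granulosa markers summed to at most 3.49 CPM, and Ptx3 was at 0 throughout. Of 26 genes of a wider cumulus and granulosa list, 3 passed the filter on low counts: Gja1, a gap junction gene that embryos also express, averaged 948 ± 291 CPM at the high dose and 1066 ± 411 CPM in controls, Amhr2 60.9 ± 35.4 and 51.5 ± 16.1 CPM, and Hsd17b1 12.96 ± 7.76 and 14.1 ± 10.8 CPM.

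Some libraries stood apart from most of their group. They were singled out after the data were seen. High-dose embryos numbered 6 to 12, a run of 7 consecutive numbers, held 10208 to 11004 genes with a count. The labels do not say whether the 7 belong to 1 experimental replicate, so an effect of the replicate and one of the dose cannot be told apart in them. They scored between 38.8 and 58.7 on the second principal component of the 79 morulae (10.4% of the variance), where the highest control scored 17.5. Of the other 21 high-dose embryos 3 also scored above every control, as did 6 of 29 low-dose embryos. High-dose embryo 14 scored highest of all, at 59.6, and low-dose embryos 27 and 30 scored 51.2 and 44.7. Embryo 14 remains in the values without embryos 6 to 12. The heaviest genes on the side of the 7 embryos were Foxi3, Trim43c and Socs3, and on the opposite end Sdcbp2, Glrx and Rnf128. The 15 heaviest of the opposite end also included the lineage genes Bmp4, Krt18, Sox17 and Krt8. Krt8 thus helps to define the component, so its level in the 7 embryos is no independent trait. Krt8, a keratin of the trophectoderm, lay between 6.16 and 389 CPM in these 7 embryos, and the lowest of the 22 controls held 822 CPM. Cdx2, which encodes a trophectoderm transcription factor, lay between 105 and 255 CPM in them and between 170 and 760 CPM in controls. Control embryo 24 held 9636 genes with a count and was the farthest of the controls from the mean profile of its group. Changes of the 20 genes and of the lists are therefore given with all embryos and without embryos 6 to 12. Their part in the results beyond the values given was not tested.

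**Figure D1:**
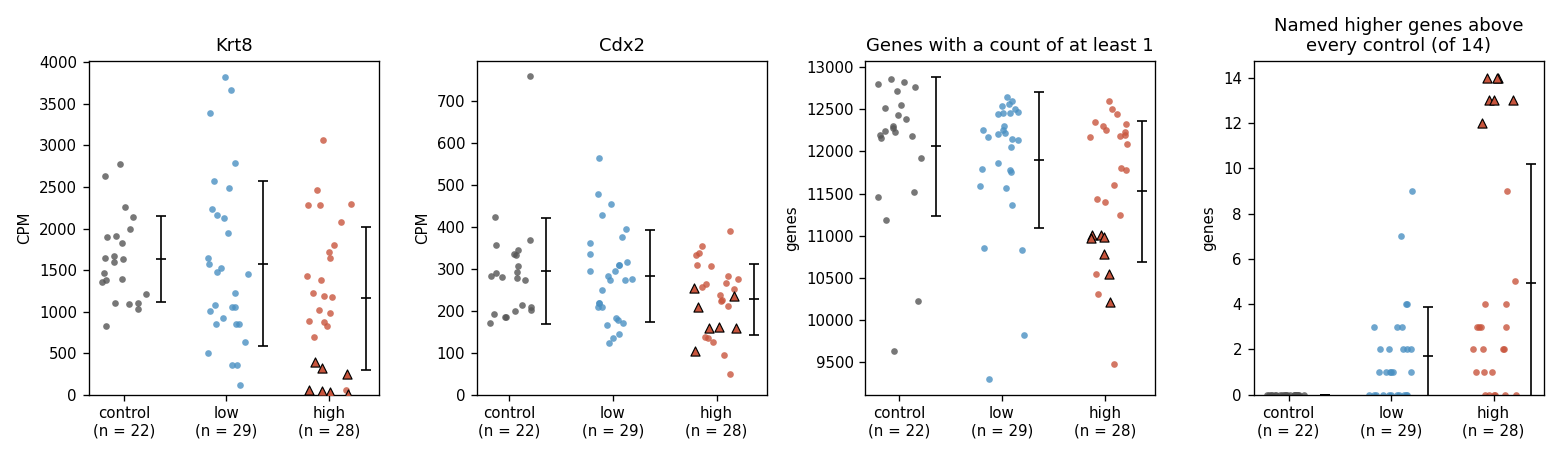
Krt8 and Cdx2 (CPM), genes with a count of at least 1, and the number of the 14 named higher genes above every control, by embryo; points are embryos, triangles high-dose embryos 6 to 12, and bars mean ± SD. The triangles lie at 6.16 to 389 CPM for Krt8 and at 12 to 14 of the 14 genes, and high-dose embryo 14 holds 9 of them. The 14 genes were chosen by their p for high minus control in these same embryos, so this number is no independent measure.

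No gene passed the threshold between high-dose and control morulae: edgeR's quasi-likelihood test with Benjamini-Hochberg adjustment called 0 of 10498 genes (0%) at an adjusted p under 0.05. The smallest adjusted p was 0.0569. At an unadjusted p under 0.05 there were 1124 genes (10.7%), 602 higher (5.73%) and 522 lower (4.97%). DESeq2 called 26 genes (0.248%), 18 higher and 8 lower, and limma voom with quality weights called 35, 5 higher and 30 lower. Without control embryo 24, edgeR called 17 genes (0.161%), 14 higher and 3 lower. Without high-dose embryos 6 to 12 it called 0, and 373 of 10450 genes (3.57%) lay under an unadjusted p of 0.05. The 20 genes with the smallest p in the edgeR fit are described here, 14 higher and 6 lower in value. They were chosen on these same embryos, so counts of embryos outside the control range follow in part from the choice. No such count over all genes tested is given beside them. All 20 are among the 26 called by DESeq2, 9 are among the 17, and only 6 are among the 35 called by limma. Without embryos 6 to 12 all 20 kept their sign with a smaller change, and 14 had an unadjusted p under 0.05. Without control embryo 24 all 20 also kept their sign. Mfap4 then went from -0.85 to -0.57, Rnd1 from -0.80 to -0.65 and Tubb6 from -0.79 to -0.67, and without all 8 embryos to -0.38, -0.53 and -0.51.

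**Figure D2:**
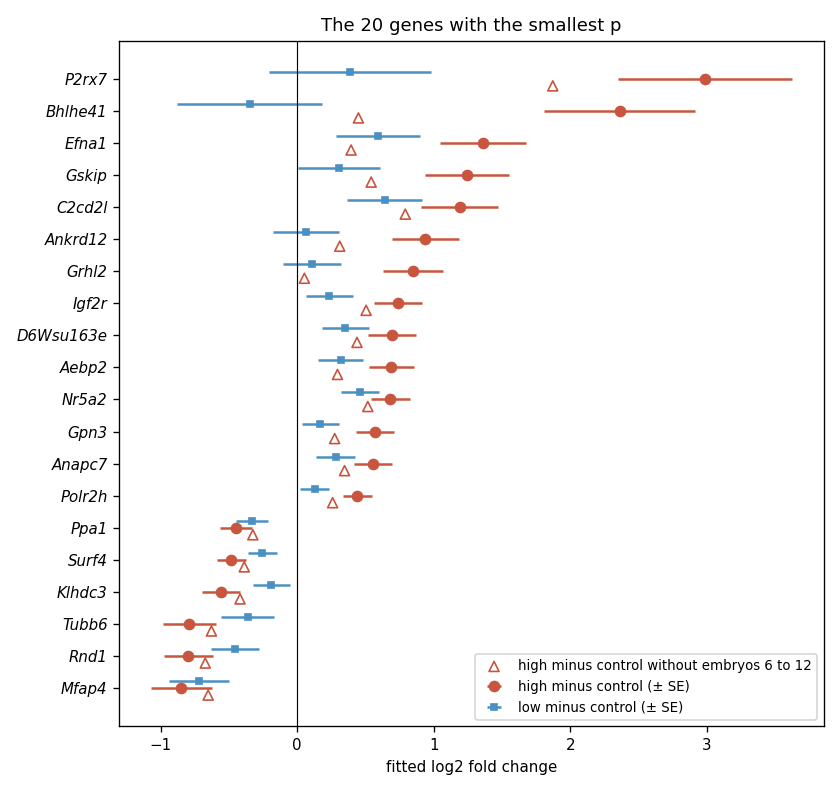
Fitted log2 fold change of the 20 genes for high minus control (circles, ± SE), the same without high-dose embryos 6 to 12 (triangles) and low minus control (squares, ± SE). P2rx7 has the largest value at 2.98, and Grhl2 goes from 0.85 to 0.05 without the 7 embryos.

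Among the 6 genes lower in value at the high dose, Surf4 and Mfap4 hold a seed match, as do Bhlhe41 and Ankrd12 among the 14 higher ones. Surf4 encodes a receptor that loads secreted proteins into vesicles at the endoplasmic reticulum (chromosome 2, 26920041 to 26933776). It ranged from 201 to 446 CPM in controls (median 295), from 125 to 352 CPM at the low dose (median 225) and from 95.4 to 329 CPM at the high dose (median 199). The groups overlap, but 14 of 28 high-dose embryos and 8 of 29 low-dose embryos lay below every control. Means were 288 ± 59.6, 242 ± 62.9 and 203 ± 56.8 CPM in that order (SD). The fitted log2 fold change was -0.48 (SE 0.11, edgeR adjusted p = 0.0633; 0.00482 to 0.998 over 14 alternatives), and -0.39 without embryos 6 to 12. At the low dose it was -0.26 (SE 0.11, edgeR adjusted p = 0.897), against the same controls. In 4-cell parthenotes of the experiment Surf4 stood at 181 ± 58.8 CPM at the high dose (n = 16) and 168 ± 78.3 CPM in controls (n = 23).

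Rnd1, which loosens the actin cytoskeleton, ranged from 9.74 to 91.0 CPM at the high dose (median 44.3) and from 20.7 to 166 CPM in controls (median 69.0). Its log2 fold change was -0.80 (SE 0.18, edgeR adjusted p = 0.0633; 0.00482 to 0.998 over 14 alternatives), and -0.67 without embryos 6 to 12. Tubb6, a beta-tubulin, held 21.98 to 395 CPM (median 127) against 134 to 442 CPM in controls (median 206). 15 of the 28 high-dose embryos lay below every control for Tubb6. Ppa1, the cytosolic inorganic pyrophosphatase, held 58.1 to 270.3 CPM (median 132) against 148 to 254 CPM (median 195), and 19 of 28 embryos lay below every control. Klhdc3, an adaptor of a ubiquitin ligase, and Mfap4, an extracellular microfibril protein whose seed match lacks the A, had log2 fold changes of -0.56 and -0.85. In each of these genes the groups overlap. Without embryos 6 to 12 the values of Tubb6, Ppa1, Klhdc3 and Mfap4 were -0.63, -0.32, -0.42 and -0.65 on the log2 scale.

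Nr5a2 had the smallest p of the comparison. It encodes a nuclear receptor that acts in genome activation and in the pluripotency network of the mouse embryo. It ranged from 20.3 to 61.6 CPM in controls (median 37.4), from 27.7 to 114 CPM at the low dose (median 48.0) and from 18.8 to 100 CPM at the high dose (median 56.5). The groups overlap, and 11 of 28 high-dose embryos and 4 of 29 low-dose embryos lay above every control. The log2 fold change was 0.68 (SE 0.14, edgeR adjusted p = 0.0569; 0.00306 to 0.998 over 14 alternatives), and 0.52 without embryos 6 to 12. At the low dose it was 0.46 (SE 0.14, edgeR adjusted p = 0.887).

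Igf2r, the maternally expressed imprinted receptor that clears IGF2, ranged from 66.1 to 464.6 CPM at the high dose (median 143) and from 50.4 to 187 CPM in controls (median 101). 10 of 28 high-dose embryos lay above every control. Its log2 fold change was 0.74 (SE 0.18, edgeR adjusted p = 0.0846; 0.00704 to 0.998 over 14 alternatives), and 0.50 without embryos 6 to 12. Polr2h, a subunit shared by the nuclear RNA polymerases, had a log2 fold change of 0.44, and 0.26 without the 7 embryos. Anapc7, a subunit of the anaphase-promoting complex, had a value of 0.56, and 0.35 without them. C2cd2l, a lipid transfer protein, had a value of 1.19, and 0.79 without them. D6Wsu163e had a value of 0.69, and 0.44 without them.

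P2rx7, an ATP-gated ion channel, lay between 26.8 and 232 CPM in embryos 6 to 12, between 0.18 and 163 CPM in the other 21, and between 0 and 35.2 CPM in controls. The 9 high-dose embryos above every control include 6 of the 7. Its log2 fold change was 2.98 (SE 0.64, edgeR adjusted p = 0.0569), and 1.87 without them.

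For 7 of the 20 genes the log2 fold change without embryos 6 to 12 was under 50% of that with all embryos. Gpn3, a GTPase that serves polymerase assembly, lay between 251 and 411 CPM in the 7 embryos and between 106 and 193 CPM in controls, with a log2 fold change of 0.57 that went to 0.27. Efna1, a membrane-bound ligand of Eph receptors, lay between 63.5 and 211 CPM in the 7 embryos and between 6.50 and 50.8 CPM in controls, with a log2 fold change of 1.36 that went to 0.39 without them. Grhl2, a transcription factor of epithelia, lay between 133 and 311 CPM in the 7, above every control (16.7 to 102 CPM) and above each of the other 21 high-dose embryos. Aebp2, a cofactor of the Polycomb repressive complex that methylates histone H3, lay above every control in all 7 embryos, and its log2 fold change of 0.69 went to 0.30 without them. Gskip, which anchors protein kinase A and binds GSK3B, went from 1.24 to 0.54.

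Bhlhe41, a transcriptional repressor of the circadian clock with a seed match, lay between 18.2 and 77.3 CPM in embryos 6 to 12. Its highest control value was 4.87 CPM, and its median at the high dose, 1.79 CPM, lay below the control median of 2.00 CPM. Ankrd12, an ankyrin repeat protein with a seed match, lay above every control in all 7 embryos, and its log2 fold change of 0.94 went to 0.31 without them. Bhlhe41 was the only gene of 10498 (0.00953%) past the threshold between the high and the low dose, at a log2 fold change of 2.71 (SE 0.51, edgeR adjusted p = 0.00786). Without embryos 6 to 12 no gene passed that comparison, in which 695 genes (6.62%) had lain under an unadjusted p of 0.05 and 256 then did. Between the low dose and controls edgeR called 0 of 10498 genes (0%), with 580 (5.52%) at an unadjusted p under 0.05, DESeq2 called 0 and limma 1.

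**Figure D3:**
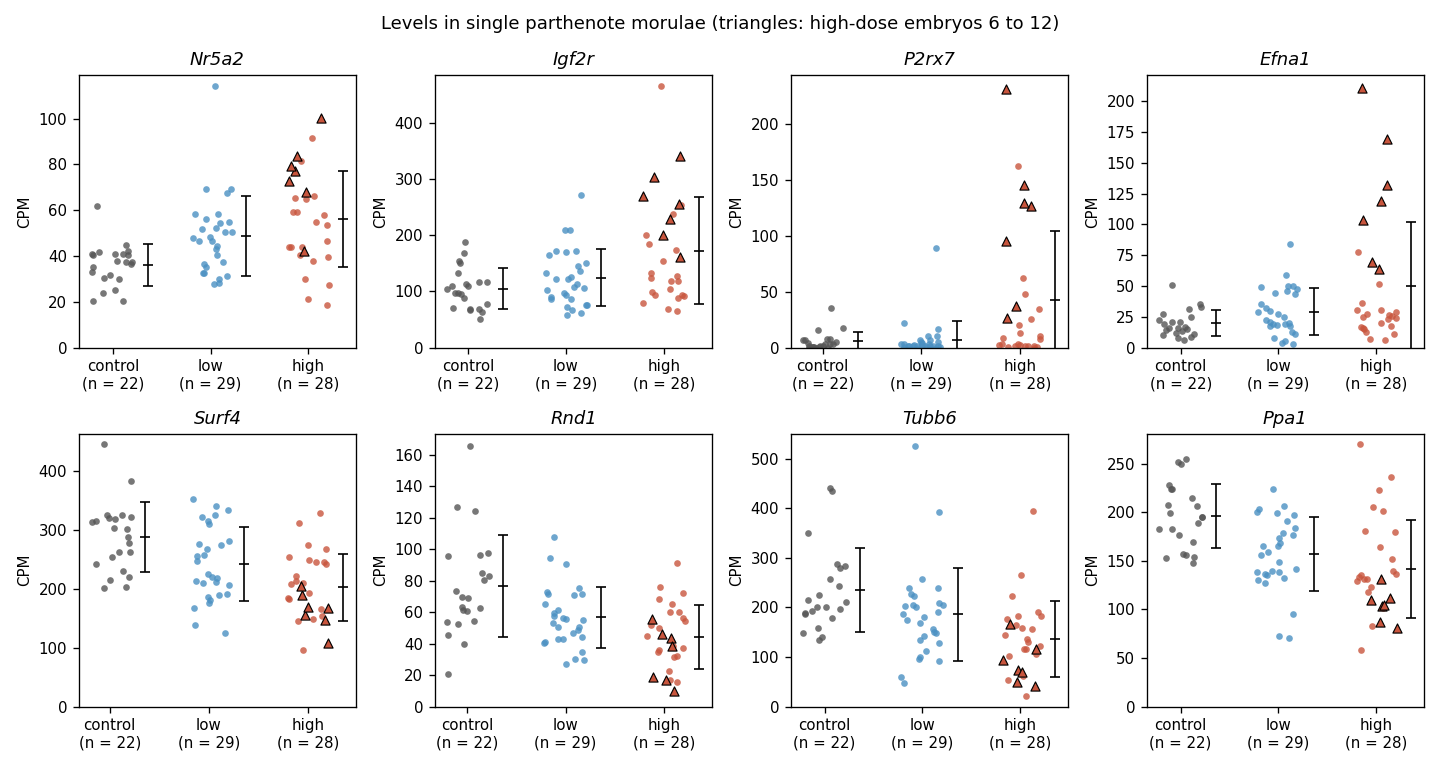
Levels (CPM) of 4 higher and 4 lower genes in single morulae; points are embryos, triangles high-dose embryos 6 to 12, and bars mean ± SD. Surf4 and Ppa1 have 14 and 19 of 28 high-dose embryos below every control, and the highest Efna1 value, 211 CPM, is a triangle. The genes were chosen by their p in these same embryos.

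Seed matches were then counted over all genes tested, as a description. A match to CCCTGAT, read on the messenger RNA strand only, occurred in the longest 3′ UTR of 752 of 10237 tested genes with an annotated 3′ UTR (7.35%), and in 7.01% of all 18829 genes of the table with one. The median log2 fold change of these 752 genes was -0.0058, against -0.0037 for the 9485 without a match. With an A opposite base 1 as well, 146 genes had a median of -0.025, of which 9 were higher (6.16%) and 13 lower (8.90%) at an unadjusted p under 0.05. For all 752 these counts were 46 (6.12%) and 44 (5.85%), for the 66 genes with 2 or more matches 3 (4.55%) and 1 (1.52%), and over all tested genes with a 3′ UTR the shares were 5.82% and 5.02%. The longest 3′ UTRs were of unequal length, with a median of 2464 bases in these 146 genes and 892 bases in genes without a match. Among the 146, Lgals9 and Tmem18 followed Surf4, Bhlhe41 and Ankrd12 in order of p, at log2 fold changes of -0.85 (SE 0.26) and -0.59 (SE 0.19). Neither passed the threshold (edgeR adjusted p = 0.209 and 0.213).

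An editing readout of the same microRNA was available at the 2-cell stage, where AGO2 fused to an RNA editor marks bound transcripts. The files give it as EPKM, a unit they do not spell out, and the depth is unknown. Of the 20 genes, 11 were analysed there, and Surf4, Bhlhe41 and Ankrd12 were not. With miR-465c-3p (n = 28) against AGO2 alone (n = 23), none of the 11 passed (two-sided permutation test on log2(EPKM + 1), smallest adjusted p 0.152, for Anapc7). Mfap4 had EPKM above 0 in 8 of 28 and 6 of 23 parthenotes (permutation test, adjusted p = 0.899).

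Gene lists were read against all genes tested, of which 5191 of 10498 (49.4%) were higher in value, with a median log2 fold change of -0.0036. At an unadjusted p under 0.05, 5.73% of all genes were higher and 4.97% lower, the background of each list count below. No member of any list passed the threshold. Of 37 trophectoderm genes tested, 29 were lower in value (median -0.24), and 25 were without embryos 6 to 12 (median -0.13). At an unadjusted p under 0.05, 3 were higher (8.11%) and 4 lower (10.8%), so the calls of single genes were split between directions. Without control embryo 24 as well the median was -0.076. The members named next, Bmp4, Krt8 and Cdx2, are all lower in value, and the 3 higher at that p are not named. Bmp4, a signalling ligand, stood at 9.59 CPM at the high dose and 28.3 CPM in controls on average (log2 fold change -1.52, edgeR unadjusted p = 0.0127), with a value of -1.12 without embryos 6 to 12. Krt8 averaged 1158 ± 861 CPM at the high dose and 1633 ± 516 CPM in controls, with log2 fold changes of -0.46 and -0.099 without the 7. Cdx2 averaged 227 ± 85.3 and 295 ± 126 CPM, with values of -0.35 and -0.26.

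Enzymes of cholesterol and fatty acid synthesis were lower in value for 32 of 35 genes (median -0.25), and for 25 of 35 without embryos 6 to 12 (median -0.11). Sqle, the squalene epoxidase, averaged 227 CPM against 361 CPM in controls (log2 fold change -0.61, and -0.40 without them). Among glycolysis genes, 19 of 28 were lower in value (median -0.16; 2 higher, 7.14%, and 6 lower, 21.4%, at an unadjusted p under 0.05), and 19 of 28 without embryos 6 to 12 (median -0.13). The glycolysis genes named here, Eno1 and Pkm, are both lower in value, and the 2 higher at that p are not named. Eno1, the enolase, averaged 241 CPM against 367 CPM (log2 fold change -0.61, and -0.41 without embryos 6 to 12). Pkm, the last kinase of glycolysis, averaged 587 CPM against 923 CPM, with values of -0.62 and -0.44. Ribosomal protein genes were higher in value for 77 of 85 (median 0.07), and for 82 of 85 without the 7 embryos (median 0.17), with 0 at an unadjusted p under 0.05 in the full comparison.

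Genes of zygotic genome activation and the 2-cell stage were higher in value for 18 of 21 tested (median 0.36), and for 17 of 21 without embryos 6 to 12 (median 0.29). The low dose showed much of the same rise: the median of low minus control was 0.30, and that of high minus low was 0.00075. Only 21 of the 45 in the table passed the filter on low counts. Obox6, a homeobox gene, averaged 545 CPM at the high dose, 449 CPM at the low dose and 351 CPM in controls, with a log2 fold change of 0.67, and 0.29 without the 7. In the list of compaction, adhesion and polarity 16 of 33 genes were higher in value (median -0.0050), with 3 higher (9.09%) and 2 lower (6.06%) at an unadjusted p under 0.05. Of these, Pard6b and Crb3, members of the apical polarity complexes, had log2 fold changes of 0.62 and 0.71, and 0.53 and 0.43 without the 7 embryos, while Pard6g, a paralogue of Pard6b, had -1.11 and -0.89. In the microRNA pathway list 19 of 35 genes were higher in value (median 0.029), with 2 higher (5.71%) and 1 lower (2.86%) at an unadjusted p under 0.05. The Argonaute gene Ago4 averaged 21.6 CPM against 10.3 CPM in controls (log2 fold change 1.13, edgeR unadjusted p = 0.000589, adjusted p = 0.159), and 0.76 without them. Dcp2, a decapping enzyme, had a value of -0.52, and -0.34 without them.

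**Figure D4:**
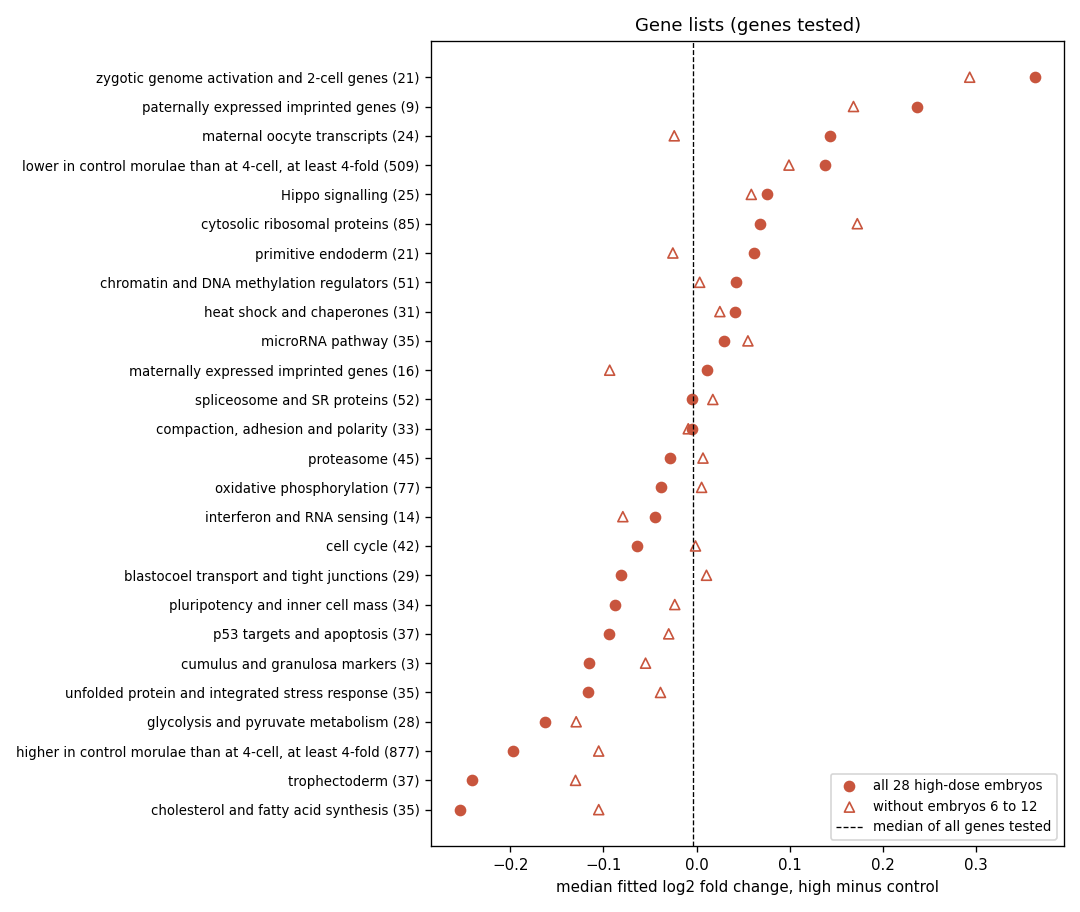
Median fitted log2 fold change of each gene list, high minus control, with all 28 high-dose embryos (circles) and without embryos 6 to 12 (triangles); the dashed line is the median of all genes tested, and the number of genes tested is in brackets. Cholesterol and trophectoderm genes lie lowest at -0.25 and -0.24, and zygotic activation genes highest at 0.36.

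Stage genes were taken from the control parthenotes of the miR-200c experiment, 24 at the 4-cell stage and 20 morulae, which share no embryo with this comparison. Of 877 genes at least 4-fold higher in those control morulae, all tested here, 663 were lower in value at the high dose (median -0.20), with 130 lower (14.8%) and 8 higher (0.912%) at an unadjusted p under 0.05. Their mean log2(CPM + 1) was 4.84 ± 0.46 at the high dose, 5.05 ± 0.39 at the low dose and 5.19 ± 0.23 in controls. It lay between 4.16 and 4.64 in embryos 6 to 12, between 3.40 and 5.40 in the other 21, and between 4.47 and 5.49 in controls. The same mean over all genes tested was 4.60 ± 0.17 at the high dose, 4.67 ± 0.17 at the low dose and 4.69 ± 0.24 in controls, and 4.38 to 4.64 in embryos 6 to 12, all below the control mean. These 7 embryos also held fewer genes with a count, as given above, and with that number as a covariate the median of the 877 was -0.14. Without embryos 6 to 12 the median of the 877 was -0.11, and without control embryo 24 as well -0.077. Of 776 genes at least 4-fold lower in those morulae, 509 passed the filter, and 327 of these were higher in value (median 0.14). Their mean log2(CPM + 1) of 3.06 ± 0.28 was close to the 3.05 ± 0.29 of controls.

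**Figure D5:**
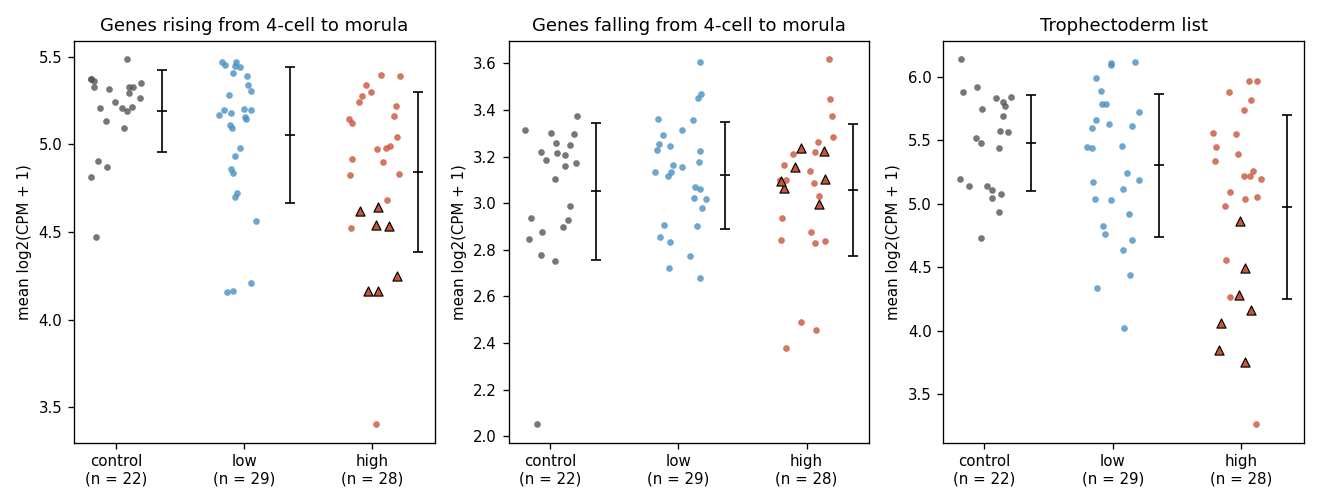
Mean log2(CPM + 1) per embryo of genes that rise or fall at least 4-fold from the 4-cell stage to the morula in other control parthenotes, and of the trophectoderm list; triangles are high-dose embryos 6 to 12 and bars mean ± SD. In the rising genes the groups overlap, with high-dose embryos from 3.40 to 5.40 and controls from 4.47 to 5.49.

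The spread among embryos was measured as 1 minus the correlation of an embryo with the mean profile of its group. It was 0.068 ± 0.027 at the high dose, 0.056 ± 0.037 in controls and 0.055 ± 0.022 at the low dose. High-dose embryos and controls did not differ detectably (two-sided permutation test, p = 0.178). Control embryo 24 held the highest value of all, 0.198, and without it the difference was 0.020 (permutation test, p = 0.0049).

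The high-dose effect was compared across stages and microRNAs by tests of the difference between effects. At the 4-cell stage itself, high-dose parthenotes and controls differed for 320 of 11931 genes, 138 higher and 182 lower (edgeR, same threshold). Between morulae and 4-cell parthenotes of the miR-465c-3p experiment, the high-dose effect differed for 185 of 11931 genes (1.55%). With genes of mean CPM of at least 10 in the controls of both stages, 0 of 6295 did. Between the high doses of miR-465c-3p and miR-200c-3p in morulae, 87 of 11419 genes differed (0.762%), 70 higher and 17 lower, and 0 did without embryos 6 to 12. These microRNAs were injected in separate experiments with their own controls, so the microRNA and the experiment cannot be told apart.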

How the data were processed

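Single-embryo SMART-Seq libraries (paired-end) were mapped to mm10 with RSEM, per the labels' protocols, and the authors deposited expected counts per gene, not normalized. Of the tools in the submitters' processing notes (STAR, featureCounts, FastQC, cutadapt, DESeq2 1.48.2, R 4.5.1) the role is not given. The deposited editing signal (EPKM over 3′ UTRs) has an unstated scaling, and 3 of its columns matched no labelled sample and were not used.

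Expected counts were rounded to whole numbers. The 22 control, 29 low-dose and 28 high-dose morulae entered 1 edgeR quasi-likelihood fit (TMM, filterByExpr, Benjamini-Hochberg adjustment, threshold 0.05). CPM is the expected count scaled to a library total of 1000000, and SE is the log2 fold change over the root of F. Genes named are, since fewer than 6 passed, the 20 with the smallest p among genes whose higher group averaged 10 CPM or more with a count in 50% or more of its embryos. High against low and the tests of a difference between effects name up to 3 genes per direction, of which 1 is not reported here. Genes described within lists, for seed matches and in the closing part beyond these were chosen after their values were seen. Permutation tests used 100000 resamples. The members and gene lists were chosen with earlier results of these data known. Leaving out high-dose embryos 6 to 12 or control embryo 24 was chosen after seeing the data. RefSeq 3′ UTRs (GRCm38.p6) were matched by transcript accession for 18829 of 23845 genes. Statistical steps were tested on simulated data. Tools were R 4.3.3, edgeR 4.0.16, limma 3.58.1, DESeq2 1.42.0, sva 3.50.0, Python 3.11.15 and scipy 1.17.1.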

Additional observations from a re-analysis of the deposited data

Results flagged for a closer look

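The tests of a difference between effects marked the following genes. The high-dose effect at the morula differed from that at the 4-cell stage for 185 genes, 98 with a higher and 87 with a lower value in morulae. Such a difference can come from either stage. In the same fit, high dose and control at the 4-cell stage differed for 320 of 11931 genes. The named genes were Pkp2 (6.64 on the log2 scale), Mpped2 (5.45) and Psd4 (4.12) with a higher value, and Trp53bp2 (-5.86), Apoa1 (-6.01) and Chpf (-4.29) with a lower one. In high-dose and control morulae Pkp2 averaged 56.1 and 45.8 CPM, Mpped2 17.3 and 17.3 CPM, and Psd4 18.8 and 15.8 CPM. Trp53bp2 averaged 35.5 and 40.0 CPM, Apoa1 13.2 and 11.4 CPM, and Chpf 50.0 and 60.4 CPM in the same order. The median of all 6 was 0 CPM in both 4-cell groups. Pkp2 and Psd4 were at 0 in all 16 high-dose 4-cell parthenotes, with a count in 7 and 2 of 23 controls. Mpped2 had a count in 1 of the 16 and in 7 of the 23. Apoa1 and Chpf each had a count in 1 of the 16, at 79.3 and 17.7 CPM, and in 1 of the 23, at 0.58 CPM. Trp53bp2 reached 96.5 CPM in 1 high-dose 4-cell parthenote, and the next held 9.50 CPM. Fitted values of genes at 0 in a group depend on the prior count. Of the genes of the report, P2rx7 (4.69) and Aebp2 (1.10) were also marked. P2rx7 too had a median of 0 CPM in both 4-cell groups, with a count in 6 of 16 high-dose parthenotes and 9 of 23 controls. Its fitted 4-cell value was -1.72. Aebp2 averaged 166 ± 70.5 CPM at the high dose and 223 ± 76.7 CPM in controls at the 4-cell stage, a log2 fold change of -0.43. It averaged 106 CPM in control morulae. Aebp2 was thus among the 6295 genes with mean CPM of at least 10 in the controls of both stages, of which 0 passed.

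The effect of the high dose in morulae differed between miR-465c-3p and miR-200c-3p for 87 genes. Wdr45 (0.70) and Gpn3 (0.95) had a higher value for miR-465c-3p. Hmga1 (-0.96), Cndp2 (-0.73) and Eno1 (-0.94) had a lower one. Wdr45, an autophagy protein, averaged 609 ± 108 CPM against 487 ± 88.5 CPM in controls with miR-465c-3p, and 392 ± 61.4 against 503 ± 153 CPM with miR-200c-3p. Hmga1, a chromatin architectural protein, averaged 73.2 ± 30.9 against 111 ± 20.8 CPM, and 90.6 ± 33.7 against 70.6 ± 24.7 CPM in the same order. The difference between the control groups of the experiments was not tested. Genes of the report also marked were Efna1 (2.07), Ankrd12 (1.51), Igf2r (1.06), Nr5a2 (1.04), Aebp2 (0.92) and Polr2h (0.75) with a higher value. Rnd1 (-1.18), Klhdc3 (-0.79) and Ppa1 (-0.68) had a lower one. None of the 87 passed without high-dose embryos 6 to 12.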

How the results depend on the processing

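The count of genes past the threshold between high dose and control, 0 in the edgeR fit, was 3 with RLE normalization, 4 with mean CPM of at least 10, 2 with a factor for bands of embryo numbers, 26 by DESeq2, 35 by limma voom with quality weights, 17 without control embryo 24 and 539 without a filter on low counts. Leaving out each of the 50 embryos in turn gave 0 to 17, the highest without control embryo 24; 11 passed without high-dose embryo 26 and 11 without 27. With the other settings run (control and high dose alone, surrogate variables, genes detected as a covariate, embryos 6 to 12 left out with or without control embryo 24) it was 0. No library held under 1000000 counts, so that setting changed nothing. With a replicate block it was 0 of 9818 genes, with 1293 at an unadjusted p under 0.05. Same-numbered embryos did not deviate together: the correlation of their deviations was -0.149 to 0.222 over 20 shared numbers, above 0.1 in 3, and 1 embryo correlated best with its own number.

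The count between high and low dose, 1, was 493 without a filter, 3 by DESeq2 and 0 with mean CPM of at least 10, genes detected as a covariate, surrogate variables, limma or embryos 6 to 12 left out. Between low dose and control, 0 became 347 without a filter and 1 by limma. The 185 genes of the morula and 4-cell difference became 22 with mean CPM of at least 10, 121 by DESeq2 and 0 with that level in the controls of both stages. The 87 of the microRNA difference became 149 by DESeq2 and 0 without embryos 6 to 12. With surrogate variables, high minus control changed sign for Bhlhe41 (-0.61), Aebp2 (-0.016), Gskip (-0.096) and Grhl2 (-0.024), and high minus low for Bhlhe41 (-0.19). The difference in genes detected was -571 by medians (permutation test, adjusted p = 0.0553) and -289 without embryos 6 to 12 (adjusted p = 0.389). Without control embryo 24 it was -651 (permutation test, adjusted p = 0.00663). The spread among embryos differed by 0.0196 without control embryo 24. The cause was not tested for any of these.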

Other observations

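High-dose morulae outside numbers 6 to 12 also varied. Embryo 14 held 59.3 CPM of Krt8 and 10550 genes with a count, and 9 of the 14 named higher genes lay above every control in it. The 14 genes were themselves chosen by their p for high minus control in these morulae. High-dose embryos 1, 2, 3, 15, 26 and 27 had none of the 14 above every control, and their Krt8 lay between 1802 and 3061 CPM. At the low dose, embryos 27 and 30 had 9 and 7 of the 14 above every control, with Krt8 at 117 and 355 CPM. Other embryos did not follow this order. Low-dose embryos 22 and 11 had 3 and 2 of the 14, with Krt8 at 355 and 497 CPM. High-dose embryos 24 and 25 each had 4, with Krt8 at 1644 and 1185 CPM. These embryos were picked after their values were seen, and a relation between Krt8 and the 14 genes was not tested. Pdgfra, a receptor of the primitive endoderm, averaged 13.1 ± 13.7 CPM at the high dose and 25.2 ± 16.3 CPM in controls, while Gata6 averaged 77.7 ± 39.0 and 61.8 ± 26.5 CPM. Of 24 maternal oocyte transcripts tested, 13 were higher in value (median 0.14, and -0.024 without embryos 6 to 12), with 1 higher and 3 lower at an unadjusted p under 0.05 (5.73% and 4.97% of all genes). Their mean log2(CPM + 1) lay below the control mean in 18 of 28 high-dose embryos. Khdc3, of the subcortical maternal complex, had a log2 fold change of -0.30 and Ooep, of the same complex, -0.76. Gdf9, an oocyte growth factor and the 1 member higher at that p, had a count in 17 of 28 high-dose embryos and in 8 of 22 controls.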
